A study of Homo sapiens with 6 samples.

Results

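The 42 genes described here encode enzymes and membrane proteins of the lysosome, together with 2 proteins that sort enzymes to it. They were taken from a list of named genes and are 42 of the 16306 genes in the deposited gene table. All 42 are in the table and all 42 passed the filter on low counts, which kept 12620 genes for testing. They comprise 11 proteases, 10 glycosidases and related glycan hydrolases, 4 sulfatases with the activator SUMF1, 4 lipid and thioester hydrolases, 10 membrane and lipid transport proteins, and 2 genes of mannose 6-phosphate sorting.

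Lysosomes are acidic compartments in which proteins, glycans and lipids are broken down by hydrolases. Most soluble hydrolases receive a mannose 6-phosphate tag in the Golgi apparatus and are carried by receptors to endosomes, whereas heavily glycosylated membrane proteins such as LAMP1 and LAMP2 line the lysosomal membrane. Many of these genes share a promoter element called CLEAR, which is bound by TFEB, TFE3 and MITF, the transcription factors of the MiT/TFE family.

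The RNA-seq data comprise 3 libraries of PC9 cells that carry the control shRNA, called sh-NC, and 3 of PC9 cells with RBM10 knocked down by shRNA, called shRBM10. The PC9 line comes from a human lung adenocarcinoma and has an in-frame EGFR exon 19 deletion, which both groups carry, and RBM10 is an RNA-binding protein that regulates exon inclusion. Both groups carry an shRNA, and the methods list 2 shRNAs against RBM10 without saying which was used for RNA-seq. The column names of the 3 shRBM10 libraries share the part SH1 while the sample titles do not, so whether these libraries share an shRNA is not known. The time after knockdown is not given for RNA-seq, nor whether the cells were 1 clone or a pool. The column of shRBM10 library A matches a sample title (replicate 1), while those of libraries B and C show only their group and carry no replicate number. The labels number the samples as biosamples without saying that they came from separate cultures, so p-values measure the spread between these libraries, which may be technical.

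The libraries held between 16606390 and 18864243 counts. In the order of sh-NC replicates 1 to 3 and libraries A to C, as for all values given by library here, RBM10 had 1431, 1183 and 1469 normalized counts in the sh-NC replicates versus 537, 515 and 672 in the shRBM10 libraries. In RNA of whole cultures, fewer cells of a kind and less RNA per cell cannot be told apart. The groups of RBM10 did not overlap, and its log2 fold change was -1.24 (SE 0.23, adjusted p = 0.1 by edgeR's quasi-likelihood F-test, Benjamini-Hochberg adjustment, and 0.00154 by DESeq2). A normalized count is the count scaled by the library size and the TMM factor to a common depth. The labels' protocol text speaks of retinas, whereas the sample labels give PC9 cells. All 10 of 10 epithelial lung adenocarcinoma markers were in the table, with a summed normalized count of 466500 to 1037000 per library. Of 14 retina markers 9 were in the table, and 7 of these 9 had under 10 counts in every library. The other 2 were NRL, at 64 to 115 counts with a log2 fold change of -0.73, and PDE6A, at 7 to 33 counts, which was higher in shRBM10 without overlap at 1.30 (SE 0.42) and passed the unadjusted limits described below. Of 12 macrophage and leukocyte markers 6 were in the table, 4 of them under 10 counts in every library. The summed normalized count of the 6 was 797 to 981 in sh-NC versus 1163 to 1676 in shRBM10. Most of this sum was CSF1R, at 563 to 1710 counts, while CD14 had 15 to 29. Of 8 fibroblast markers 5 were in the table, 3 of them under 10 counts in every library. Libraries stood apart within both groups: log2 expression correlated at 0.99 between sh-NC replicates 1 and 3 but at 0.94 between each of them and replicate 2, and library C correlated at 0.98 with sh-NC replicates 1 and 3 and at 0.95 with library A. The deviation of a library from the mean also followed the GC content of the genes, with a Spearman correlation over genes of 0.38 to 0.50 in the sh-NC libraries and library C and of -0.73 and -0.67 in libraries A and B.

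The lysosomal genes spanned more than 3 orders of magnitude in PC9 cells. TPM, a level scaled to gene length and to the library's total, was used to compare genes. In sh-NC, 10 of the 42 genes had a mean above 100 TPM, 22 lay between 10 and 100 TPM and 10 were under 10 TPM. The highest was NPC2, a soluble cholesterol-binding protein, with 893, 1035 and 911 TPM in sh-NC replicates 1 to 3. CD63, a tetraspanin of late endosomes and lysosomes, had 755, 803 and 760 TPM. CTSD, the aspartic protease cathepsin D, had 606, 396 and 631 TPM, and LAMP1, an abundant glycoprotein of the lysosomal membrane, had 249, 130 and 253 TPM. These 4 genes held 61.2% of the summed TPM of the 42. CTSS, a cysteine protease best known from antigen-presenting cells, was the lowest with 0.43, 0.44 and 0.49 TPM in sh-NC, followed by GNPTAB at 1.53 ± 1.07 TPM (SD, n = 3), IDUA at 2.06 ± 0.99 TPM and ARSB at 2.32 ± 1.18 TPM. In the order of mean TPM, the sh-NC ranges of 6 of the 41 pairs of neighbours did not overlap, and those of the other 35 did. Replicate 2 had the lowest TPM of sh-NC for 36 of the 42 genes, although after TMM scaling its normalized count was the highest of sh-NC for 26 of the 42. The TMM factor of this replicate was 0.738, against 1.03 to 1.08 in the other libraries.

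The comparison of sh-NC with shRBM10 asks what loss of RBM10 changes in the transcriptome. With a limit of 0.05 on the adjusted p and of 1 on the absolute log2 fold change, no lysosomal gene of the 42 was called by edgeR's quasi-likelihood F-test (Benjamini-Hochberg adjustment), which called 0.0158% of all genes tested. When the p was left unadjusted, with the same 2 limits, 5 of the 42 passed, which is 11.9% of them, against 11.6% of all genes tested. All 5 were higher in shRBM10: CTSS, MANBA, AGA, SCARB2 and GNPTAB, against 10.1% of all genes passing in this direction and 1.53% in the other. With no limit on the fold change, 7 of the 42 had an unadjusted p under 0.05, all of them higher, with CTSL and LAMP2 added, whereas 24.3% of all genes did so, 15.7% higher and 8.6% lower. The first of these shares was close to the background. The share with no limit on the fold, 16.7%, was below the 24.3% for either direction and close to the 15.7% for higher genes. DESeq2 called 3 of the 42 at its adjusted p, namely CTSS, MANBA and GNPTAB, where it called 4.72% of all genes.

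The log2 fold changes of the 42 genes ran from -0.41 (LAMP1) to 1.49 (GNPTAB), with a median of 0.12 against 0.027 over all genes tested and a median SE of 0.26. Fold changes were above 0 for 28 of the 42 genes, or 66.7%, against 51.6% of all genes. The 3 shRBM10 libraries all lay above the 3 sh-NC libraries for 13 of the 42 genes, or 31.0%, where 13.8% of all genes did so. They all lay below for 1 gene, LAMP1, or 2.38%, against 16.2% of all genes. The 13 genes were CTSA, CTSL, CTSS, TPP1, MANBA, FUCA1, AGA, IDUA, IDS, LAMP2, SCARB2, HGSNAT and GNPTAB. These counts depended on library C, the shRBM10 library that lay nearest to sh-NC replicates 1 and 3. Without it, 15 of the 42 genes did not overlap and were higher, 10 did not overlap and were lower, against 33.9% and 28.6% of all genes, and the median log2 fold change was -0.073. The exact permutation test, two-sided, of 1 gene between 3 and 3 libraries cannot give a p below 0.1, which is what the 14 genes without overlap reached. The 95% interval of the log2 fold change lay within -1 to 1 for 31 of the 42 genes, or 73.8%, against 38.9% of all genes. The median SE over all genes was 0.31, against 0.26 over the 42, so these shares also depend on the precision of each gene.

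The share of each library's counts that fell on the 42 genes was 0.538%, 0.516% and 0.541% in the sh-NC replicates versus 0.582%, 0.576% and 0.668% in the shRBM10 libraries. The groups did not overlap, and library C had the highest share. The abundant members weigh most in this sum, and it takes no account of the TMM factors.

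**Figure D1:**
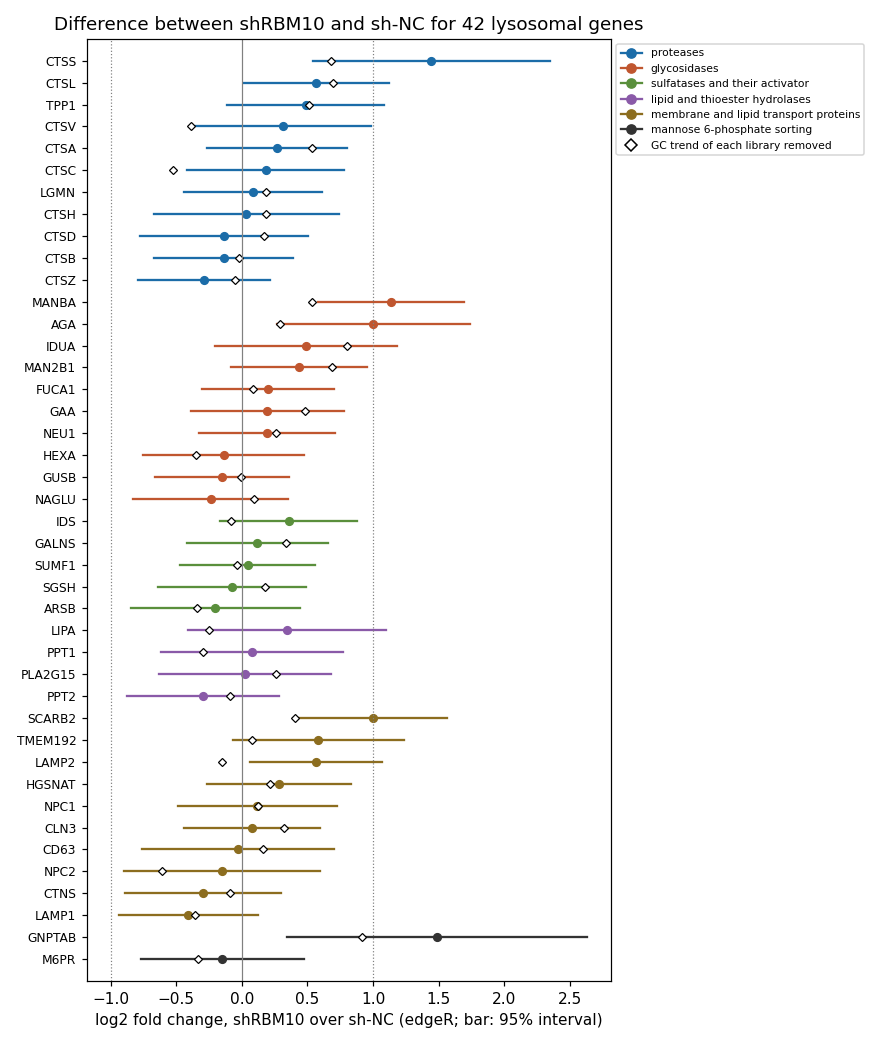
log2 fold change between shRBM10 and sh-NC for the 42 lysosomal genes by role, with 95% intervals from edgeR (filled points) and the value after each library's GC trend was removed (open diamonds). GNPTAB at 1.49 and CTSS at 1.45 are highest, LAMP1 at -0.41 is lowest, and no diamond lies above 1.

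Among the 11 proteases, CTSS and CTSL had an unadjusted p under 0.05 and the other 9 did not. CTSS (chr1:150730196-150765957, minus strand, hg38) had 21.8, 43.8 and 24.4 normalized counts in the sh-NC replicates versus 107, 84.3 and 50.9 in the shRBM10 libraries. All shRBM10 libraries lay above all sh-NC libraries, with library C closest to sh-NC replicate 2. Its log2 fold change was 1.45 (SE 0.40, adjusted p = 0.153 by edgeR, 0.0386 by DESeq2). Of the 6 macrophage and leukocyte markers in the table, PTPRC had at most 7 counts, ITGAM at most 5, MRC1 at most 3 and FCER1G at most 1 in any library, while CD14 had 15 to 29 counts and CSF1R 563 to 1710. The log2 fold changes of the latter pair were 0.13 and 0.57, and the part of such cells in the level of CTSS was not tested.

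CTSL, the cysteine protease cathepsin L, had 1272, 1920 and 1224 normalized counts in sh-NC versus 2428, 2154 and 1964 in shRBM10. Sh-NC replicate 2 and library C lay close to each other, but the groups did not overlap. The log2 fold change was 0.57 (SE 0.25, adjusted p = 0.197 by edgeR), while that of its paralogue CTSV was 0.32 (SE 0.30). CTSD, the most abundant protease, had 14960, 19230 and 15310 normalized counts in sh-NC versus 11620, 13830 and 19610 in shRBM10. Its groups overlapped, with library C above every sh-NC library and libraries A and B below them, and its log2 fold change was -0.14 (SE 0.29).

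The other 8 proteases had log2 fold changes between -0.29 and 0.49. TPP1, a serine peptidase that removes tripeptides, had the highest at 0.49 (SE 0.27), with 1198, 755 and 1106 normalized counts in sh-NC versus 1231, 1239 and 1818 in shRBM10. CTSZ, a carboxypeptidase, had the lowest at -0.29 (SE 0.23). CTSA, which protects the sialidase NEU1 in a complex, differed by 0.27 (SE 0.24), and its exons overlap those of NEURL2 and PLTP on the opposite strand. CTSB, CTSC, CTSH and LGMN lay between -0.14 and 0.18 with overlapping groups.

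Of the 10 glycan hydrolases, MANBA and AGA passed the unadjusted limits. MANBA (chr4:102630770-102760994, minus strand, hg38), the beta-mannosidase of N-glycan breakdown, had 382, 259 and 359 normalized counts in sh-NC versus 785, 713 and 705 in shRBM10. The 3 shRBM10 libraries were close to each other and all well above sh-NC, library C included. Its log2 fold change of 1.14 (SE 0.25) had the smallest adjusted p of the 42 genes, 0.129 by edgeR and 0.00991 by DESeq2. Without sh-NC replicate 2 it was 0.90, below the limit on the fold change.

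AGA (chr4:177430770-177442503, minus strand, hg38), an amidase that cleaves the bond between asparagine and N-glycans, had 172, 301 and 189 normalized counts in sh-NC versus 535, 482 and 307 in shRBM10. Libraries A and B stood apart, and library C barely exceeded sh-NC replicate 2. The log2 fold change was 1.00 (SE 0.33, adjusted p = 0.158 by edgeR, 0.0609 by DESeq2) and was below 1 when any of 4 libraries was left out. HEXA, the alpha subunit of beta-hexosaminidase and the most abundant of this role, had 2571, 4346 and 2436 normalized counts in sh-NC versus 2543, 2684 and 3274 in shRBM10. Its groups overlapped, and its log2 fold change was -0.14 (SE 0.27).

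The other 7 glycan hydrolases did not pass the test and lay between -0.24 (NAGLU) and 0.49 (IDUA). IDUA, the alpha-L-iduronidase of glycosaminoglycan breakdown, had 72.6, 47.9 and 68.6 normalized counts in sh-NC versus 81.1, 75.7 and 110 in shRBM10. The groups did not overlap, at a log2 fold change of 0.49 (SE 0.31), and IDUA shares exonic sequence with SLC26A1 on the opposite strand. MAN2B1, the lysosomal alpha-mannosidase, differed by 0.43 (SE 0.23) with overlapping groups. GAA, the acid alpha-glucosidase, differed by 0.19 (SE 0.26), and GUSB, the beta-glucuronidase, by -0.15 (SE 0.23).

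None of the 5 genes of the sulfatase group passed the test, and all 5 intervals lay within -1 to 1. IDS, the iduronate sulfatase, was the most abundant of them, with 5034, 3625 and 5136 normalized counts in sh-NC versus 5633, 5857 and 6182 in shRBM10. Its groups did not overlap, and its log2 fold change was 0.36 (SE 0.23, adjusted p = 0.337 by edgeR). ARSB, arylsulfatase B, had 161, 112 and 167 normalized counts in sh-NC versus 134, 112 and 137 in shRBM10, with a log2 fold change of -0.20 (SE 0.29) and overlapping groups. GALNS, SGSH and SUMF1, which activates sulfatases by converting a cysteine to formylglycine, lay between -0.075 and 0.12.

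None of the 4 lipid and thioester hydrolases passed the test, and the groups of all 4 overlapped. LIPA, the acid lipase that hydrolyses cholesteryl esters and triglycerides, had 1867, 4365 and 2017 normalized counts in sh-NC versus 4103, 3393 and 2990 in shRBM10. Sh-NC replicate 2 was the highest of the 6 libraries, and the log2 fold change was 0.35 (SE 0.34). The exons of LIPA overlap those of IFIT2 on the opposite strand, and the sources used here do not state whether reads were counted by strand. PPT1, a palmitoyl-protein thioesterase, showed the same arrangement, with 2106, 4275 and 2102 normalized counts in sh-NC versus 3384, 3049 and 2500 in shRBM10, and a log2 fold change of 0.075 (SE 0.31). PPT2, a related thioesterase, had 599, 739 and 603 normalized counts in sh-NC versus 458, 446 and 678 in shRBM10, with a log2 fold change of -0.29 (SE 0.26). PLA2G15, the lysosomal phospholipase A, differed by 0.024 (SE 0.29).

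Of the 10 membrane and lipid transport proteins, SCARB2 passed the unadjusted limits and LAMP2 had an unadjusted p under 0.05. SCARB2 (chr4:76158733-76234536, minus strand, hg38), also called LIMP-2, carries glucocerebrosidase to the lysosome. It had 959, 741 and 987 normalized counts in sh-NC versus 2194, 1822 and 1363 in shRBM10. All shRBM10 libraries were above all sh-NC libraries, with library C the lowest of them, and the log2 fold change was 1.00 (SE 0.25, adjusted p = 0.144 by edgeR, 0.0315 by DESeq2). DESeq2 did not call it because its log2 fold change there was 0.98. The log2 fold change of SCARB2 was below 1 in 8 of 14 alternative settings, DESeq2 included. It was 0.80 without sh-NC replicate 2 and 0.83 without library A.

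LAMP1 and LAMP2, the paired glycoproteins of the lysosomal membrane, lay on opposite sides of 0. LAMP2 had 2133, 2639 and 2027 normalized counts in sh-NC versus 3772, 3374 and 2899 in shRBM10. The groups did not overlap, and the log2 fold change was 0.56 (SE 0.23, adjusted p = 0.182 by edgeR). LAMP1 had 7615, 7893 and 7733 normalized counts in sh-NC versus 5440, 4927 and 7145 in shRBM10. Its sh-NC libraries agreed closely and every shRBM10 library lay below them, library C by the least, at a log2 fold change of -0.41 (SE 0.24, adjusted p = 0.291 by edgeR). The difference between the fold changes of LAMP1 and LAMP2 was not tested.

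NPC2 had 7076, 15520 and 7079 normalized counts in sh-NC versus 8540, 9297 and 8850 in shRBM10. Sh-NC replicate 2 held more than any shRBM10 library and the other 2 sh-NC replicates less, so the log2 fold change of -0.15 (SE 0.33) became 0.25 without it. CD63 showed the same arrangement, with 8056, 16560 and 7964 normalized counts in sh-NC versus 9499, 10520 and 11890 in shRBM10. TMEM192 differed by 0.58 (SE 0.29), with 913, 626 and 447 normalized counts in shRBM10 against 419 to 460 in sh-NC. NPC1, CLN3, CTNS, the cystine exporter, and HGSNAT, which acetylates heparan sulfate, lay between -0.30 and 0.28.

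Of the 2 genes of mannose 6-phosphate sorting, GNPTAB passed the unadjusted limits and M6PR did not, and the difference between them was not tested. GNPTAB (chr12:101745497-101830938, minus strand, hg38) encodes the alpha and beta subunits of the phosphotransferase that builds the tag. It had 161, 45.2 and 157 normalized counts in sh-NC versus 494, 356 and 175 in shRBM10. Library C was just above the highest sh-NC library, and sh-NC replicate 2 was lowest. The log2 fold change was 1.49 (SE 0.51, adjusted p = 0.165 by edgeR, 0.0472 by DESeq2). It was 1.015 without sh-NC replicate 2. Without library A it was 1.13, with an unadjusted p of 0.068 by edgeR. M6PR, a receptor for the tag, had 3977, 7205 and 4068 normalized counts in sh-NC versus 4511, 4346 and 4891 in shRBM10. Its groups overlapped because of sh-NC replicate 2, and its log2 fold change was -0.15 (SE 0.28).

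Library C and sh-NC replicate 2 stood apart in many of these values. Sh-NC replicate 2 was over 1.5 times the mean of replicates 1 and 3 for 11 of the 42 genes, under 1/1.5 of it for 3, and within these limits for 28, with ratios from 0.285 to 2.25. The ratio of replicate 1 to replicate 3 lay between 0.854 and 1.12. Among the shRBM10 libraries, C was the highest for 27 genes, whose median GC content was 54.7%, and the lowest for 13 genes, whose median GC content was 42.8%.

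**Figure D2:**
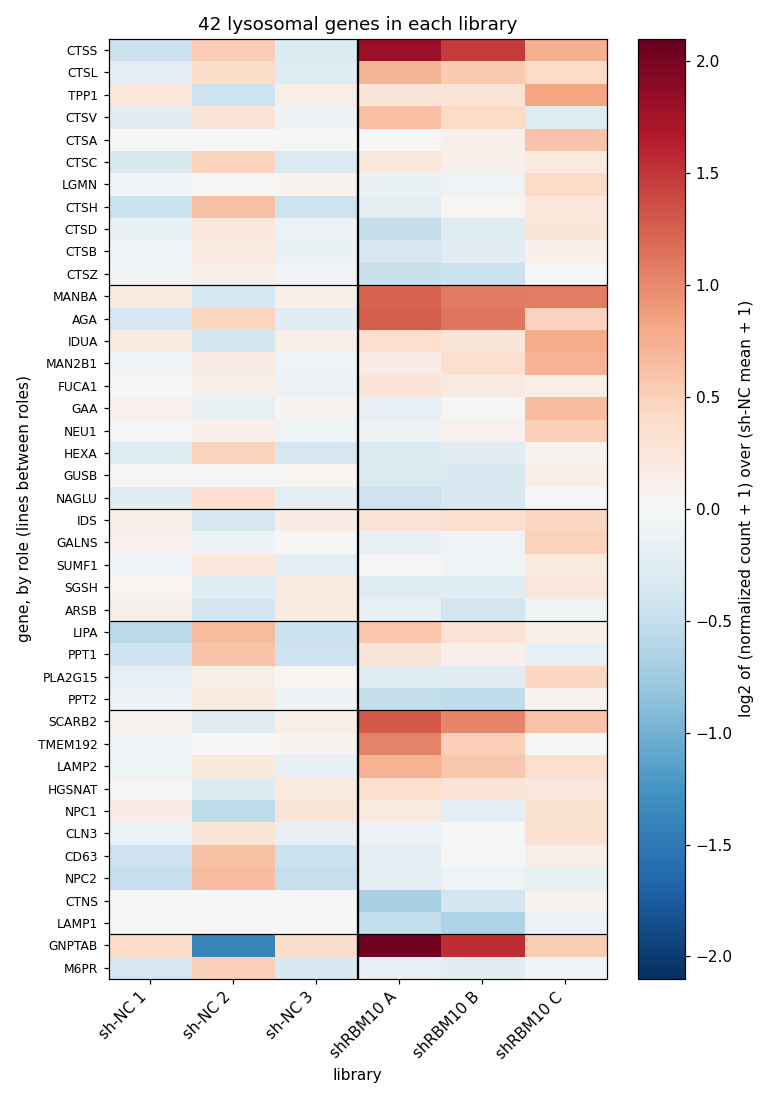
The 42 lysosomal genes in each library, as log2 of the normalized count plus 1 over the sh-NC mean plus 1, grouped by role. CTSS, MANBA, AGA, SCARB2 and GNPTAB are red in all shRBM10 libraries, while sh-NC replicate 2 and library C differ from the other libraries of their groups in many rows.

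The 5 genes past the unadjusted limits had GC contents of 39.5% to 43.2% in their longest transcript. Of the 12 lysosomal genes under 45% GC, 11 had a log2 fold change above 0 and the median was 0.57, against a median of 0.65 over the 4603 genes tested under 45% GC. The 5 genes were all among these 12, where 22.8% of the 4603 genes passed the limits as higher. Of the 30 lysosomal genes at or over 45% GC, 17 were above 0, and the median was 0.039, against -0.20 over 7967 genes. None of the 30 passed the limits, where 2.75% of the 7967 genes passed as higher. Over the 42 genes the Spearman correlation of the log2 fold change with GC content was -0.46, and over all genes it was -0.60. These points share the same 6 libraries.

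After each library's GC trend was removed, none of the 42 genes passed the unadjusted limits, where 2.09% of all genes were higher and 2.55% lower. GNPTAB then differed by 0.91, CTSS by 0.68, MANBA by 0.54, SCARB2 by 0.41 and AGA by 0.29 on the log2 scale. An unadjusted p under 0.05 remained or appeared for 6 genes, all higher in shRBM10, namely IDUA at 0.80, CTSL at 0.70, MAN2B1 at 0.69, CTSA at 0.54, GAA at 0.48 and SCARB2 at 0.41. The share of all genes at this p, with no limit on the fold change, is not given for this scale. The 6 genes therefore have no background to be set against. IDUA, GAA, CTSA and MAN2B1 had GC contents of 69.3%, 64.1%, 60.7% and 59.3%, and CTSL and SCARB2 of 52.5% and 42.2%. On this scale the Spearman correlation of the log2 fold change with GC content was 0.32 over the 42 genes. Over all genes it was -0.012, so the members then ran with GC content in the other direction. The smallest adjusted p among the 42 by edgeR was then 0.116, that of MAN2B1. LAMP2, with 37.7% GC the lowest of the 42, turned from 0.56 to -0.15. The median over the 42 genes was 0.14, against -0.043 over all genes, and 25 were above 0. On this scale the groups did not overlap for 13 genes that were higher, 8 of which were among the 13 named above, and for LAMP1, which was lower, against 13.3% and 17.4% of all genes. Libraries A and B differed from all sh-NC libraries in their GC trend while library C did not, and the part that GC content plays in these differences was not tested further.

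The promoter windows of the lysosomal genes were searched for the CLEAR-type letters CACGTG, for the longer TCACGTGA and for the latter with a G before and a C after it, on both strands, each longer form containing the shorter ones. Windows ran from 250 bases before to 50 bases after the start (RefSeq, GRCh38.p14), and 33 of the 42 genes matched a window, with 49 windows in all. CTSB, CTSS, LGMN, HEXA, MANBA, NAGLU, SGSH, LAMP2 and HGSNAT were not matched. CACGTG was found for 11 of the 33 genes (33.3%), against 12.6% of all tested genes with a window and 7.26% of all windows. TCACGTGA was found for 5 genes (15.2%, against 2.27% of tested genes and 0.980% of windows), and the longest form for GAA and GALNS (6.06%, against 0.909% and 0.353%). The windows of AGA, SCARB2 and GNPTAB held none of these letters. The sites of the 5 genes with the longer form are shown because most of the 33 genes lack it. The matched letters are in capitals with 30 bases on either side, written 5′ to 3′ on the strand of the gene.
CLN3 (chr16:28492039-28492106, minus strand): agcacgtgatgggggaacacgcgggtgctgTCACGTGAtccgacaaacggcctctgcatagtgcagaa
CTSA (chr20:45891279-45891346, plus strand): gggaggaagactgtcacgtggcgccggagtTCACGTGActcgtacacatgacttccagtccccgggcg
GAA, first site (chr17:80101473-80101542, plus strand): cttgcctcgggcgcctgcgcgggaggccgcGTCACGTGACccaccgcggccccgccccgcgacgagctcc
GAA, next site (chr17:80101518-80101587, plus strand): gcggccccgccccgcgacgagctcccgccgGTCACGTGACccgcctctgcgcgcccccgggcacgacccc
GALNS (chr16:88857084-88857153, minus strand): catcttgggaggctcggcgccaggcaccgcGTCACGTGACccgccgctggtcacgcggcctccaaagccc
LAMP1, first site (chr13:113297180-113297247, plus strand): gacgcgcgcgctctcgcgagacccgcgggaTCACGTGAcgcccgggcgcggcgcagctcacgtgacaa
LAMP1, next site (chr13:113297207-113297274, plus strand): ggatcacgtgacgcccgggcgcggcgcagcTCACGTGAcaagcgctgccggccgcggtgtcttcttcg

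GAA and LAMP1 each hold 2 such sites close together, 78 and 33 bases before the RefSeq start in GAA and 29 and 2 bases before it in LAMP1. By the gene starts of GENCODE 29, chr17:80101556 for GAA and chr13:113297241 for LAMP1, the next site of each lies across the start. The 11 genes with CACGTG were ARSB, CD63, CLN3, CTSA, CTSD, GAA, GALNS, LAMP1, M6PR, NEU1 and SUMF1. None of them passed the unadjusted limits, 6 had a log2 fold change above 0, and their median was 0.044 against 0.26 for the 22 matched genes without it. With the GC trends removed this order turned, with medians of 0.17 and 0.078. A match to these letters is a description of the sequence and not of binding.

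The CLEAR-binding transcription factors and other lysosomal genes were examined from further lists. TFEB had 212, 208 and 262 normalized counts in sh-NC versus 123, 155 and 197 in shRBM10. The groups did not overlap, at a log2 fold change of -0.52 (SE 0.29, adjusted p = 0.276 by edgeR). TFE3 differed by -0.33 (SE 0.23) and MITF by 0.40 (SE 0.45), both with overlapping groups. MITF, with 123 normalized counts in sh-NC replicate 2 against 407 and 393 in the other sh-NC replicates, turned to -0.059 without that replicate and to -0.22 with the GC trends removed. Of 105 other lysosomal genes tested, 64 were above 0 with a median of 0.081, and none was called at the adjusted p by edgeR. For 26 of the 105 the unadjusted p by edgeR was under 0.05, against 24.3% of all genes. DESeq2 called 10 of the 105, where it called 4.72% of all genes. At the unadjusted limits 12 passed, all higher, which is 11.4% against the 11.6% of all genes.

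By list, 2 of 20 V-ATPase subunits passed the unadjusted limits, 4 of 29 further hydrolases and activators, 4 of 38 further membrane and sorting proteins, and 2 of 18 MiT/TFE factors and regulators. CTSO, a further cathepsin, had 9.07, 8.22 and 8.12 normalized counts in sh-NC versus 59.5, 59.4 and 24.97 in shRBM10. Its log2 fold change of 2.48 (SE 0.44, adjusted p = 0.0932 by edgeR, 0.00234 by DESeq2) exceeded that of every one of the 42 genes. ASAH1, the acid ceramidase, differed by 1.68 (SE 0.32), and GALC, the galactosylceramidase, by 1.56 (SE 0.35).

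The V-ATPase subunits ATP6V1A and ATP6V1C1, parts of the proton pump that acidifies lysosomes, differed by 1.34 (SE 0.36) and 1.30 (SE 0.30). The membrane proteins were LMBRD1 at 1.18 (SE 0.24), CD164 at 1.10 (SE 0.26), MFSD8 at 1.18 (SE 0.39) and MCOLN2 at 1.20 (SE 0.46). FNIP1 and FNIP2, which act with folliculin upstream of TFEB and TFE3, differed by 1.62 (SE 0.56) and 1.76 (SE 0.56). The groups of MCOLN2, at 9 to 44 counts, and of FNIP1 overlapped. Those of ATP6V1A, ATP6V1C1, LMBRD1, CD164, MFSD8 and FNIP2 did not. FNIP2 had 7 counts in sh-NC replicate 2 against 43 and 35 in sh-NC replicates 1 and 3. Of 4 cystatins tested, which inhibit cysteine cathepsins, CSTA passed in the other direction at -1.08 (SE 0.46), with 377 normalized counts in sh-NC replicate 2 and 85.5 to 132 in the other 5 libraries. After the GC trends were removed, 4 of the 105 genes passed the unadjusted limits, 2 in each direction, where 2.09% of all genes were higher and 2.55% lower.

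Transcript usage was tested because RBM10 regulates splicing. Of 35 lysosomal genes with at least 2 transcripts that passed the filter, none was called and none had an unadjusted Simes p under 0.05, where 0.0958% and 2.74% of 8348 genes did, and 7 could not be tested. The Simes p-values from edgeR's diffSpliceDGE ran from 0.339, for LGMN, to 0.999. LGMN, the asparagine-specific protease legumain, had its main transcript NM_005606 at 87.6%, 86.3% and 93.3% of its counts in sh-NC versus 92.7%, 93.9% and 96.0% in shRBM10. The groups overlapped.

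GUSB had 54.9%, 54.4% and 49.96% of its counts on NM_000181 in sh-NC versus 61.7%, 74.3% and 66.8% in shRBM10, without overlap. IDS had 61.7%, 34.5% and 59.2% on NM_000202 in sh-NC versus 71.6%, 61.9% and 61.9% in shRBM10, where sh-NC replicate 2 stood apart. LAMP2 has 3 forms with different cytosolic tails, of which LAMP2A serves chaperone-mediated autophagy. The LAMP2A transcript NM_002294 held 39.3%, 42.2% and 41.9% of the LAMP2 counts in sh-NC versus 35.8%, 34.8% and 38.7% in shRBM10. The LAMP2B transcript NM_013995 held 60.8%, 51.7% and 55.6% in sh-NC versus 64.2%, 63.5% and 60.7% in shRBM10, and LAMP2C, NM_001122606, held at most 6.14% in any library. The LAMP2A shares did not overlap between the groups, but no gene passed: the Simes p was 0.460 for GUSB, 0.464 for IDS and 0.479 for LAMP2, from the edgeR model across all genes. Most transcript counts are estimates of how shared reads divide, since 41.1% of them have no fractional part as written.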

How the data were processed

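The authors deposited estimated counts and TPM per gene, and estimated counts per RefSeq transcript, from RNA-seq sequenced by BGI-Tech. The submitters' processing notes name hg38, and the aligner, the counting tool, the annotation and the strand setting are not given in the sources used here. The labels' protocol names a poly(A) selection and 2 library kits without assigning them to libraries. Of the deposited estimated counts per gene, 87.5% had no fractional part as written. The deposited TPM values were used for the 3 sh-NC replicates, and 32 columns of other values of single libraries were left out, since libraries B and C match no sample title and such columns were admitted for 1 measure. The 8 columns of group means in each table were not used either.

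Estimated counts were rounded, filtered with filterByExpr, TMM-normalized and fitted with glmQLFit, then tested with glmQLFTest, over all genes and all 6 libraries, with no covariate (edgeR 4.0.16, limma 3.58.1, R 4.3.3). The limits for a call were 0.05 on the adjusted p (Benjamini-Hochberg) and 1 on the absolute log2 fold change. The SE is the log2 fold change divided by the square root of F. Transcript usage was tested with diffSpliceDGE. DESeq2 1.42.0, limma-voom, other scalings and filters, removal of a loess trend on GC content (span 0.5, GENCODE 29 transcripts, 99.6% of genes matched) and leaving out each library served as alternatives. Gene positions and exon overlaps are from GENCODE 29 on GRCh38. Depths of 16606390 to 18864243 counts per library set the counting precision, and tests rest on the spread between libraries.

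The members, their roles and the further lists were chosen with earlier results of these data known. All 42 genes could be named. Values in every library were given for genes past the unadjusted limits, for the 2 with the smallest p in a role with fewer, and for the gene with the highest TPM of each role. CTSZ, TPP1, IDUA, CD63, TMEM192 and LAMP1 were given values or singled out after their values were seen. From each further list up to 4 genes past the unadjusted limits were named, and 1 of them is not reported here.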

Additional observations from a re-analysis of the deposited data

How the results depend on the processing

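The call that no lysosomal gene of the 42 passed the adjusted limits by edgeR or limma-voom held under every scaling, filter and left-out library tried, and at an adjusted p under 0.1 with all libraries. By DESeq2 3 passed, where it called 573 genes against 2 by edgeR, and edgeR called between 0 and 31 genes over the alternatives. Without library C, 5 of the 42 had an adjusted p under 0.1 by edgeR, the smallest being 0.0600. The share of all genes under 0.1 in that setting is not given. At the unadjusted limits, 16.8% of all genes passed without library C, against 11.6% with all libraries. At the unadjusted limits the count of 5 became 3 by DESeq2 (11.7% of all genes passed), 3 with RLE factors (11.2%) and 0 with the GC trends removed (4.65%). Leaving out 1 library gave 2 to 5, with 2 without library A (4.51%), 3 without library B (8.31%) and 3 without sh-NC replicate 2 (6.35%). The count of 12 other lysosomal genes became 4 with the GC trends removed and 5 to 16 with 1 library left out, 5 being without library A. The median log2 fold change of 0.12 became 0.27 with library size only, where 35 of the 42 were above 0 and the median of all genes moved to 0.16. It ran from -0.073 (without library C) to 0.20 with 1 library left out. The 13 genes that were higher without overlap became 11 to 14 under the other scalings, where 13.3% to 15.9% of all genes did so, and 13 to 21 with 1 library left out (21 without sh-NC replicate 2, against 23.4% of all genes, and 15 without library C, against 33.9%). LAMP1 was lower without overlap in all of these but library size only and upper quartile scaling. This count and its alternatives were chosen after seeing the data.

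For RBM10 and the 16 lysosomal genes given values by the rule stated above, 238 alternative values in 14 settings were compared. CTSZ, TPP1, IDUA, CD63, TMEM192 and LAMP1, singled out after their values were seen, were not among these 16. Of the 238 values, 200 kept their direction and side of the limits, 22 fell below the limits and 16 turned in direction. Those that turned were all in genes that were not called. With the GC trends removed, CTSD turned to 0.17, IDS to -0.087, LIPA to -0.25, PPT1 to -0.29 and LAMP2 to -0.15. With library size only, CTSD turned to 0.011, HEXA to 0.051, NPC2 to 0.070 and M6PR to 0.046. Without sh-NC replicate 2, HEXA turned to 0.098, NPC2 to 0.25 and M6PR to 0.11. Without library A, CTSD turned to 0.020 and PPT1 to -0.026, and PPT1 turned to -0.10 without sh-NC replicate 1 and to -0.10 without replicate 3. With 1 library left out, the values ran from -0.41 to 0.020 for CTSD, -0.10 to 0.42 for PPT1, -0.35 to 0.25 for NPC2 and -0.30 to 0.11 for M6PR. The causes were not tested. Transcript usage kept 0 calls with each library left out and with at least 10 counts in every library. No paired analysis was possible because the columns of shRBM10 libraries B and C carry no replicate number, so the groups share only 1 number.

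With 3 libraries a group, log2 fold changes of 1.14 to 1.49 (MANBA, CTSS and GNPTAB) did not reach the adjusted limit by edgeR. Outside the 42, that of CTSO at 2.48 did not reach it either (adjusted p = 0.0932 by edgeR). Changes of these sizes or less may therefore have gone uncalled among the 42 genes.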
